A study of Mus musculus with 10 samples.

Results

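The genes described here encode the actin cytoskeleton and its contractile machinery, together with serum response factor (SRF), which drives many of them. They form a list of 36 symbols. A member was read from probe sets annotated to its symbol alone, and where a gene had several such probe sets the brightest by its mean over 10 arrays was used. This gave 35 members, out of 19937 genes in the whole table. The remaining symbol, Actg1, had only probe sets shared with Actb.

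The mouse preadipocyte line 3T3-L1 grew out of embryonic fibroblasts and forms fat cells under a cocktail of insulin, dexamethasone and IBMX. Clonal lines picked from it had been sorted by how much triglyceride they stored after that cocktail, into High lines and Low lines. RNA came from proliferating, pre-confluent cells kept in DMEM with 10% serum, with no treatment, so none of the 10 lines had been induced when its array was made. Numbered 1 to 5 in this order, the High lines are 3F4, 4D2, 4E3, 5C4 and 5D4. The Low lines, numbered alike, are 1E7, 2D7, 2F1, 4D11 and 4H4. Each line is 1 clone and 1 array, so the spread within a class holds both clonal and technical variation. The number of lines sets the precision.

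SRF is a transcription factor that binds a short DNA element called the CArG box. Among its coactivators, Mrtfa and Mrtfb are held in the cytoplasm by monomeric actin and enter the nucleus when actin assembles into filaments. SRF with these partners switches on actin, myosin, tropomyosin and adhesion genes. In 3T3-L1 and other preadipocytes, stress fibres and a spread shape are known to oppose fat cell formation, and the actin cytoskeleton is remodelled when the cells differentiate.

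The values are log2 signals after RMA, the authors' normalization, and differences are High minus Low on that log2 scale. Each gene was compared with limma, and p-values were adjusted over 16339 tested genes with a threshold of 0.05. The label was checked against markers before the comparison. The 8 fibroblast and preadipocyte markers Col1a1, Col1a2, Col3a1, Pdgfra, Pdgfrb, Thy1, Vim and Dlk1 lay above the array's median in all 10 arrays. Of the 6 smooth muscle markers, Acta2, Des and Lmod1 lay above the array's median in 10 of 10 arrays, Cnn1 in 8, Myh11 in 5 and Myocd in 0. All 35 measured members passed the filter on dim genes, which asks that 5 or more arrays exceed their own 25th percentile. Myocd, the smooth muscle and heart coactivator of SRF, passed it in 6 arrays and is the member nearest to that limit.

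Promoter sequences of RefSeq (GRCm38.p6), from 250 bases before to 50 bases after a gene's start, were available for 31 of the 36 members. Tagln, Actb, Actg2, Myh11 and Myocd were the others. An exact CArG box is CC followed by 6 letters that are A or T and then GG. This pattern is the same on both strands, although the letters of a given box can differ between them. It was found in 8 of the 31 members, or 25.8%, against 1.81% of 27025 genes in the promoter table. The members were listed as contractile and SRF target genes, so these shares do not test whether SRF drives them in these lines. Of the 8, Srf, Vcl and Myl9 are printed whole because their differences between the classes ran in both directions, and the other 5 as 30 bases around the match. Capitals mark the CArG box.
Srf, which encodes the factor itself, chr17:46556113-46556412, minus strand: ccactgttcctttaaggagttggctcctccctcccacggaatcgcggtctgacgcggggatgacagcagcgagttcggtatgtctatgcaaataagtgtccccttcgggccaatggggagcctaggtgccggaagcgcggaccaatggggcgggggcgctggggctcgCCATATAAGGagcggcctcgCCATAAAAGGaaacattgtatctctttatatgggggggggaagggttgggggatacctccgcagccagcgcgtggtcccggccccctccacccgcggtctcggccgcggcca
Vcl, vinculin, chr14:20929148-20929447, plus strand: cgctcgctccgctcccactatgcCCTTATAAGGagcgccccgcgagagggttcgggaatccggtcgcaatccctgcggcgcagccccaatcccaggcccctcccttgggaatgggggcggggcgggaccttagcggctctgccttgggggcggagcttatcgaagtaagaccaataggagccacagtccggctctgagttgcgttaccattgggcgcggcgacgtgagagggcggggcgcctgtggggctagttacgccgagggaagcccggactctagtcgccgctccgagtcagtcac
Myl9, a regulatory myosin light chain, chr2:156775214-156775513, plus strand: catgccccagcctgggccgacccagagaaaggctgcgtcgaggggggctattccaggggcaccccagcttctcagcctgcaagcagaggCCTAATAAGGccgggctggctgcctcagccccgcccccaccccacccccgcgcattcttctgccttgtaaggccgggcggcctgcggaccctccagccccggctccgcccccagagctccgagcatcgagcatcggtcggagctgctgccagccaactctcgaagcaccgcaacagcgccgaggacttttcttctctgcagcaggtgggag
Cnn2, calponin 2, chr10:79988534-79988563, plus strand: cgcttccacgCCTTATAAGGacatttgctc
Actg1, cytoplasmic gamma actin, chr11:120348566-120348595, minus strand: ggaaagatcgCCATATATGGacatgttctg
Myl6, an essential myosin light chain, chr10:128493040-128493069, minus strand: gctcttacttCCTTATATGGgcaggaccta
Filip1l, a filamin-interacting protein, chr16:57549170-57549199, plus strand: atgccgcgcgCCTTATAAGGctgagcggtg
Lmcd1, a LIM domain protein, chr6:112273533-112273562, plus strand: tgctccttgcCCTTTAAAGGagaagggcgt

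Counted from the start of the gene, the boxes of Srf began at -82 and -62, that of Cnn2 at -56, that of Filip1l at -62, that of Myl6 at -50 and that of Actg1 at -90. In Vcl, Lmcd1 and Myl9 they lay farther out, at -227, -215 and -161. The same letters CCTTATAAGG stood in Vcl, Cnn2 and Filip1l. A match describes the sequence, and a window without one says only that these letters are not in it. The 7 measured members with a box had a median difference of -0.02, with 5 of 7 below 0, and the 23 measured members without one had a median of -0.09, with 20 of 23 below 0.

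Most members had a lower mean in High lines, by small amounts, and Tagln stood out in size. Of the 35 measured members, 27 had a negative and 8 a positive difference. These are RNA levels of whole cultures, in which fewer cells of a type and less RNA per cell cannot be told apart. The median difference was -0.09, against 0.02 over all genes tested, where 42.0% were negative. No member passed the adjusted threshold in limma, where 0.00612% of all genes did, which is 1 gene. At an unadjusted p under 0.05, 7 of the 35 members were lower in High lines, where 4.79% of all genes were, and 0 members were higher, where 3.16% of all genes were. With the arrays centred on their medians 54.3% of all genes were negative, and the unadjusted p was under 0.05 for 1188 genes below 0 and 298 above it, against 782 below and 517 above without centring. In the centred fit 28 members were negative and 10 were lower at an unadjusted p under 0.05. In the main comparison the 7 were Tagln, Tpm1, Pdlim7, Actn1, Srf, Vcl and Smtn. The High and Low values did not overlap for Tpm1 and Smtn, or 5.71% of the members, where 1.04% of all genes had every High line below every Low line. No member had every High line above every Low line, where 0.526% of all genes did.

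Over all genes the share of negative differences was larger among bright genes, and the count of members at an unadjusted p under 0.05 moved with a single line. Of the 20 members with a mean signal of 12 or more, 16 were negative with a median of -0.09. Among the 15 members with a mean signal under 12, 11 were negative, also with a median of -0.09. Over all 1345 tested genes of that strength 57.0% were negative and the median was -0.01. At an unadjusted p under 0.05, 3 of those 20 members were lower in High lines, where 4.39% of the 1345 genes were. Of the 20, Tpm1 alone had every High line below every Low line, where 1.78% of the 1345 genes did. Without Low replicate 4 the number of members at an unadjusted p under 0.05 and lower in High lines was 3, namely Tagln, Tpm1 and Pdlim7, where 3.88% of all genes were, and the median difference was -0.06. In that fit 1 member, Myl9, was higher, where 2.54% of all genes were. Tagln, Tpm1 and Pdlim7 were at an unadjusted p under 0.05 in each of the 10 fits that left out a line, and Actn1 in all but the fit without Low replicate 4. Besides that fit, Srf was not without High replicate 2 or 5, Smtn not without High replicate 5, and Vcl not without High replicate 2 or 3 or Low replicate 3. When clones were blocked by the digit that opens their name, 4 members were at an unadjusted p under 0.05 and lower in High lines, where 2.44% of all genes were. They were Cnn1, Itga5, Myh9 and Vcl, of which Vcl alone is 1 of the 7.

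**Figure D1:**
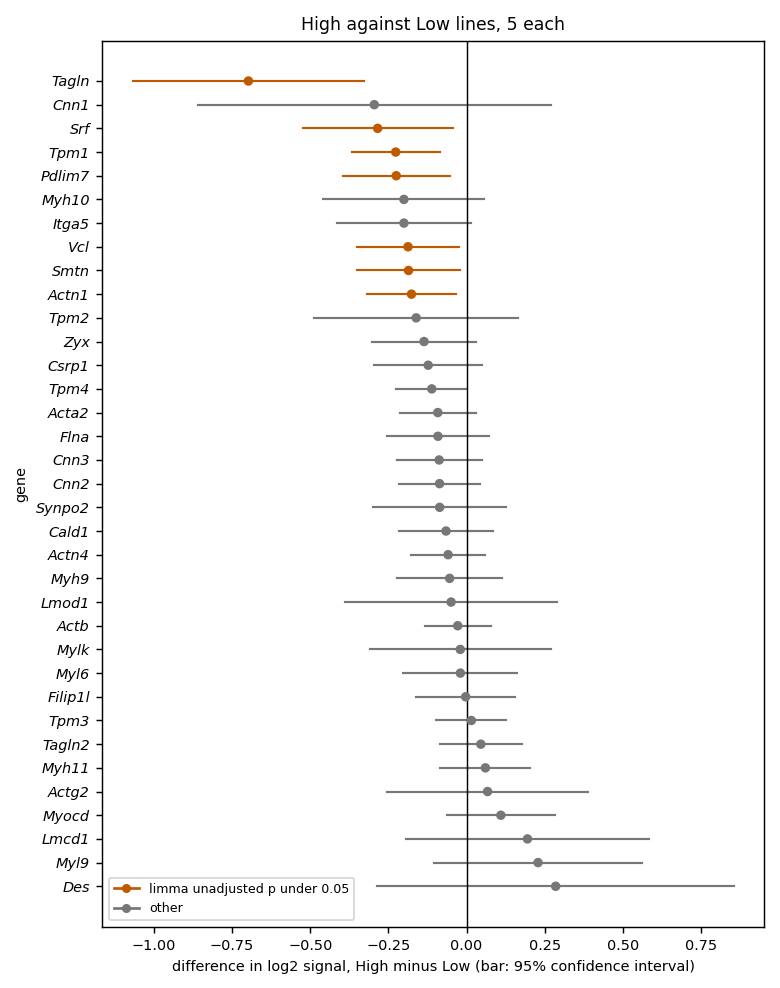
Difference in log2 signal, High minus Low, of the 35 measured members on the horizontal axis, with the 95% confidence interval from limma as a bar and genes ordered by their difference. The 7 genes at an unadjusted p under 0.05 all lie left of 0, and Tagln, at -0.70, lies farthest from it.

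Tagln encodes transgelin, a calponin-family protein that binds and bundles actin filaments and is an early marker of the smooth muscle programme. Its signal (Entrez gene 21345, chromosome 9) was 10.38, 10.82, 11.18, 10.49 and 11.32 in High replicates 1 to 5, against 11.59, 11.60, 11.75, 11.27 and 11.47 in Low replicates 1 to 5. The lowest High lines, replicates 1 and 4, were far from any Low line, and the classes overlapped at 1 point, since High replicate 5 exceeded Low replicate 4. Tagln averaged 10.84 ± 0.41 in High lines and 11.54 ± 0.18 in Low lines (SD, n = 5 each). The difference of -0.70 (95% confidence interval -1.07 to -0.33) corresponds to a signal 1.62-fold lower in High lines, with a limma adjusted p of 0.277. Leaving out 1 line in turn gave differences between -0.82 and -0.58. When clones were blocked by the digit that opens their name, a fit that rests on High replicates 2 and 3 and Low replicates 4 and 5 alone, the difference was -0.37 and no longer at an unadjusted p under 0.05. The labels do not say what that digit stands for. Over the 930 tested genes of chromosome 9 the median was 0.02.

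The rest of the transgelin and calponin family did not share the size of the Tagln difference. Tagln2, the broadly expressed transgelin 2, was 12.94, 12.97, 12.87, 12.91 and 12.98 in High lines and 12.88, 12.77, 12.84, 12.93 and 13.01 in Low lines, with overlapping classes and a difference of 0.05 (95% confidence interval -0.09 to 0.18). Cnn1, calponin 1, which marks differentiated smooth muscle, was 8.14, 7.57, 8.53, 8.58 and 7.99 in High lines and 8.81, 7.61, 8.18, 8.99 and 8.70 in Low lines. Its difference of -0.30 was the next most negative after Tagln, but its values spanned 1.41 within the 10 lines and its 95% confidence interval ran from -0.86 to 0.27. High replicate 2 and Low replicate 2 were the lowest lines for Cnn1 in their classes. The Cnn1 difference was -0.15 without High replicate 2, -0.16 without Low replicate 4 and -0.51 without Low replicate 2, the last at an unadjusted p under 0.05. With the clone digit as a block it was -0.79, also at an unadjusted p under 0.05. Cnn2 and Cnn3, the non-muscle calponins, each differed by -0.09.

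**Figure D2:**
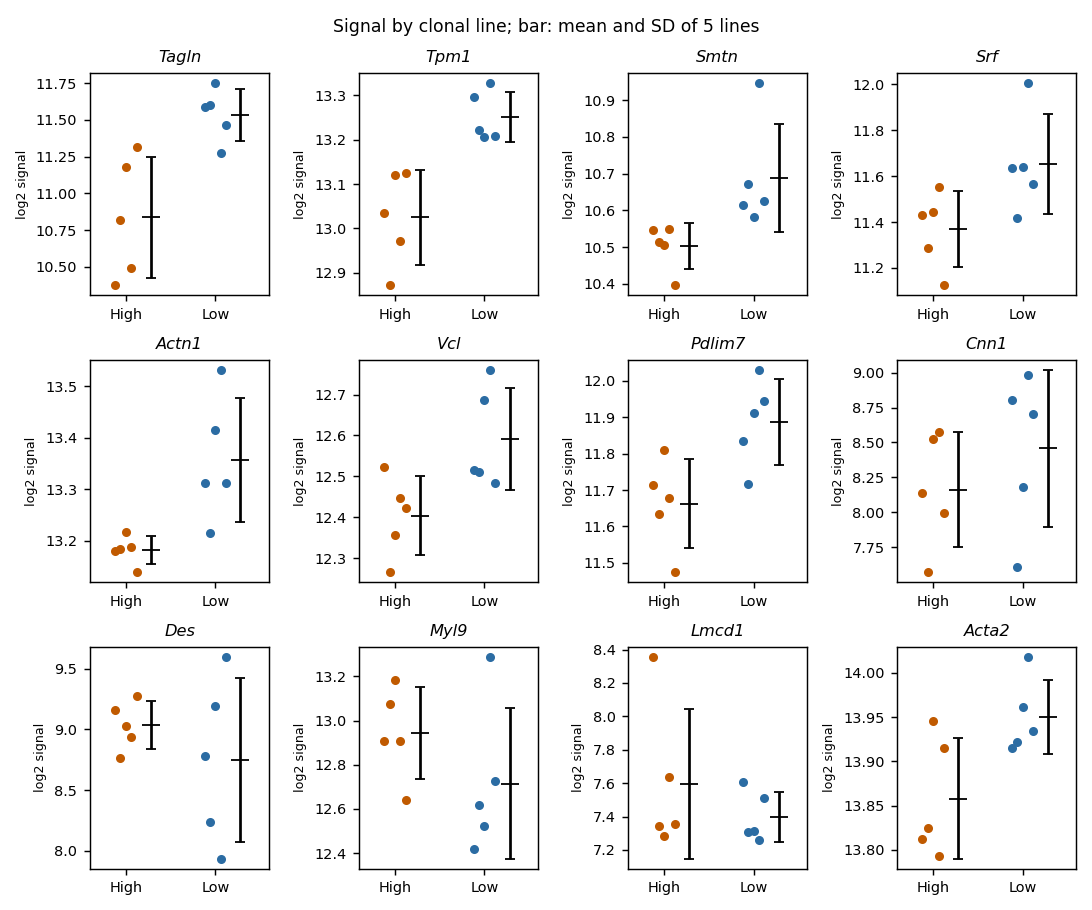
Log2 signal of 12 members in High lines (left in each panel) and Low lines (right), 1 point per clonal line, with the mean and SD of 5 lines as a bar; each panel has its own scale. The High and Low points are separate for Tpm1 and Smtn and overlap in the other 10 panels, in Tagln through High replicate 5 and Low replicate 4.

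The tropomyosins, rod-shaped proteins that lie along actin filaments and control access of myosin, held the clearest separation. Tpm1 was 13.03, 12.87, 13.12, 12.97 and 13.12 in High lines, against 13.30, 13.22, 13.21, 13.33 and 13.21 in Low lines. Every High line lay below every Low line, by a small gap between the nearest values. The difference was -0.23 (95% confidence interval -0.37 to -0.09), or 1.17-fold lower in High lines (limma adjusted p = 0.378). Tpm4 was 13.73, 13.62, 13.62, 13.61 and 13.61 in High lines and 13.72, 13.77, 13.74, 13.78 and 13.74 in Low lines, a difference of -0.11 (limma adjusted p = 0.629). High replicate 1 alone reached the Low values of Tpm4. The 851 tested genes of chromosome 8, which carries Tpm4, had a median of -0.07. Tpm2 differed by -0.16 and its lines spread over 0.83. Tpm3, with 4 probe sets, differed by 0.02 on the brightest, or -0.02 with the arrays centred on their medians, and by -0.04 to 0.08 over the 4.

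Srf itself was among the 7. Its signal was 11.43, 11.29, 11.45, 11.55 and 11.13 in High lines and 11.64, 11.42, 11.64, 12.004 and 11.57 in Low lines. High replicates 2 and 5 lay below all Low lines, while the other 3 High lines lay within or near the lower part of the Low range. Srf averaged 11.37 ± 0.17 in High lines and 11.65 ± 0.22 in Low lines (SD, n = 5 each), a difference of -0.28 (95% confidence interval -0.52 to -0.04) or 1.22-fold lower in High lines (limma adjusted p = 0.534). Without Low replicate 4, the brightest line for Srf, the difference was -0.20 and no longer at an unadjusted p under 0.05. Myocd measured 6.51 ± 0.17 in High lines and 6.40 ± 0.05 in Low lines (SD, n = 5 each), below the array's median in all 10 arrays, with a difference of 0.11.

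Proteins that tie actin filaments to each other and to focal adhesions made up the most one-sided group. Of 10 cross-linker and adhesion members, 9 had a negative difference, with a median of -0.13. Negative differences were 42.0% of all genes and 57.0% of those with a mean signal of 12 or more. The transgelins and calponins and the thin filament group each had 4 of 5 below 0. At an unadjusted p under 0.05, 3 of the 10 were lower in High lines, where 4.79% of all genes were. Actn1, the actinin that cross-links stress fibres, was 13.18, 13.18, 13.22, 13.19 and 13.14 in High lines and 13.31, 13.22, 13.42, 13.53 and 13.31 in Low lines. The High lines were close together, and 4 of them lay below every Low line. The Actn1 difference was -0.18 (limma adjusted p = 0.511).

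Vcl, the vinculin gene, whose product links integrin complexes to actin, was 12.52, 12.27, 12.36, 12.45 and 12.42 in High lines and 12.52, 12.51, 12.69, 12.76 and 12.48 in Low lines. High replicate 1 was within the Low range, the other 4 below it, and the difference was -0.19 (limma adjusted p = 0.559). Pdlim7, a PDZ and LIM protein of stress fibres, was 11.72, 11.63, 11.81, 11.68 and 11.48 in High lines and 11.83, 11.72, 11.91, 12.03 and 11.95 in Low lines. High replicate 3 exceeded the lowest Low line, and 4 High lines lay below all Low lines. The Pdlim7 difference was -0.22 (limma adjusted p = 0.481). Without Low replicate 4 the differences were -0.13 for Actn1, -0.15 for Vcl and -0.19 for Pdlim7, and of these Pdlim7 alone stayed at an unadjusted p under 0.05.

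The other adhesion members gave smaller or less even values. Itga5, the fibronectin receptor subunit, was 12.49, 12.36, 12.49, 12.60 and 12.62 in High lines and 12.64, 12.46, 12.72, 13.03 and 12.71 in Low lines, with only High replicate 2 below all Low lines. Its difference was -0.20 (limma adjusted p = 0.649) and -0.12 without Low replicate 4. It was -0.26 without Low replicate 2 and -0.45 with the clone digit as a block, both at an unadjusted p under 0.05. Zyx, the mechanosensitive zyxin gene, differed by -0.14, Csrp1, a LIM protein, by -0.12, Flna, filamin A, by -0.09 and Actn4 by -0.06. Filip1l differed by -0.00, a sign that turned with repeated quantile normalization. Lmcd1 was the exception in sign, at 8.36, 7.34, 7.28, 7.64 and 7.36 in High lines and 7.61, 7.31, 7.32, 7.26 and 7.51 in Low lines. Its difference of 0.19 rested on High replicate 1, and without that line it was 0.00. Lmcd1 was dim, above the array's median in 1 of 10 arrays.

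Myosins and their kinase showed no common direction, with 4 negative and 2 positive differences and none at an unadjusted p under 0.05. Myl9, the regulatory light chain of smooth and non-muscle myosin II, was 12.91, 13.08, 13.19, 12.91 and 12.64 in High lines and 12.42, 12.62, 12.52, 13.29 and 12.73 in Low lines. Low replicate 4 was the brightest of all 10 lines and the other 4 Low lines lay below 4 of the High lines. The Myl9 difference was 0.23 (limma adjusted p = 0.763), and 0.37 without Low replicate 4 (limma adjusted p = 0.595). Myh10, a non-muscle myosin II heavy chain, differed by -0.20 with a range of 0.75 over the 10 lines. Myh9, the other main non-muscle heavy chain, differed by -0.05 on its brighter probe set and by -0.22 on its dimmer one. Myh11, the smooth muscle heavy chain, differed by 0.06, Mylk, the kinase that activates smooth muscle myosin, by -0.02, and Myl6 by -0.02, with its 5 probe sets between -0.02 and 0.12.

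Of the actins, which build the filaments, Actb and Acta2 were nearly level across lines, while Actg2 spread over 0.93. Acta2, smooth muscle alpha actin, was 13.81, 13.82, 13.95, 13.79 and 13.92 in High lines and 13.91, 13.92, 13.96, 14.02 and 13.93 in Low lines. High replicates 1, 2 and 4 lay below all Low lines and High replicates 3 and 5 among them. The Acta2 difference was -0.09 (95% confidence interval -0.21 to 0.03), or 1.07-fold lower in High lines. Actb, cytoplasmic beta actin, varied by 0.06 over all 10 lines and differed by -0.03. The 4 probe sets shared by Actg1 and Actb differed by -0.14 to -0.04. Actg2, smooth muscle gamma actin, differed by 0.07, with Low replicate 2 at 12.25 and the other 9 lines between 12.70 and 13.18. Actin genes are nearly identical in their coding parts, so probes may read more than 1 of them, and their split is uncertain.

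Among the remaining cytoskeletal members, Smtn separated the classes and Des varied most. Smtn encodes smoothelin, a protein of contractile stress fibres. It was 10.55, 10.51, 10.50, 10.55 and 10.40 in High lines, against 10.61, 10.67, 10.58, 10.95 and 10.63 in Low lines, with every High line below every Low line. The Smtn difference was -0.19 (95% confidence interval -0.35 to -0.02, limma adjusted p = 0.568), and -0.12 without Low replicate 4, no longer at an unadjusted p under 0.05. Des, the muscle intermediate filament gene desmin, was 9.16, 8.77, 9.03, 8.94 and 9.28 in High lines and 8.79, 8.23, 9.19, 7.94 and 9.60 in Low lines. The Low lines held both the highest and the lowest value of Des, a spread of 1.66, and the difference was 0.28 (limma adjusted p = 0.808). It was 0.08 without Low replicate 4, 0.16 without Low replicate 2 and 0.50 without Low replicate 5, the last at an unadjusted p under 0.05. Cald1, which encodes caldesmon, Lmod1, a nucleator of actin filaments in smooth muscle, and Synpo2, an actin-bundling protein, differed by -0.07, -0.05 and -0.09. Synpo2 was dim, above the array's median in 1 of 10 arrays. Lmod1 ran from 7.98 to 8.85 in Low lines.

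Each member was then centred on its mean over the 10 lines, and the median over members was taken per line. With Tagln left out, the 34 other members had a median of 0.01, -0.08, -0.02, -0.01 and -0.07 in High replicates 1 to 5, against 0.02, -0.06, 0.05, 0.15 and 0.03 in Low replicates 1 to 5. Low replicate 4 was the highest line and High replicate 2 the lowest, and Low replicate 2 lay among the High lines. The line medians averaged -0.03 ± 0.04 in High lines and 0.04 ± 0.07 in Low lines (SD, n = 5 each). With Tagln included the lowest line median was -0.08, in High replicate 2, and the highest 0.14, in Low replicate 4.

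Low replicate 4 was the brightest of the 10 lines for 19 of the 35 members, and 29 members lay above their mean there. High replicate 2 was the dimmest line for 10 members, and 6 lay above their mean. The median over all tested genes, centred in the same way, was 0.01 in High replicate 2 and 0.00 in Low replicate 4. For the cross-linker and adhesion members alone the line median was -0.15 in High replicate 2 and 0.23 in Low replicate 4.

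**Figure D3:**
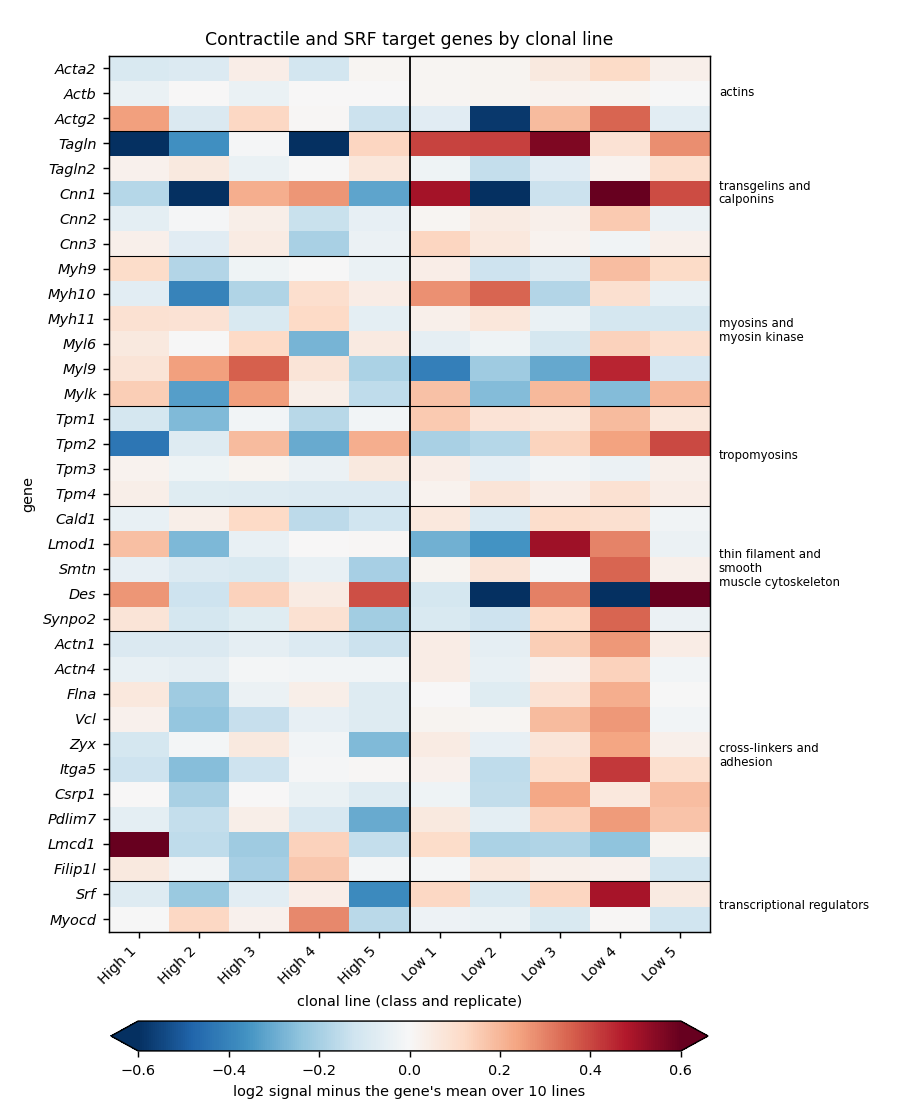
Heat map of the 35 measured members (rows, grouped by role) in 10 clonal lines (columns, High left of Low), coloured by log2 signal minus the gene's mean over 10 lines; colours stop at -0.6 and 0.6. The column of Low replicate 4 is the most evenly red, with 29 of 35 members above their mean, and Tagln shows another order of lines than the members below it.

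Tagln did not order the lines as the other members did. From low to high, the signal of Tagln ranked High replicate 1 first and Low replicate 3 last, and the median of the other 34 ranked High replicate 2 first and Low replicate 4 last. Low replicate 4, with the highest median of the other members, had the lowest Tagln signal of the Low lines, 0.09 above the mean of Tagln over all lines. High replicates 1 and 4, the 2 lines with the least Tagln, at -0.81 and -0.69 from that mean, had line medians of the other members near 0. High replicate 5 had more Tagln than any other High line and the next to lowest line median.

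**Figure D4:**
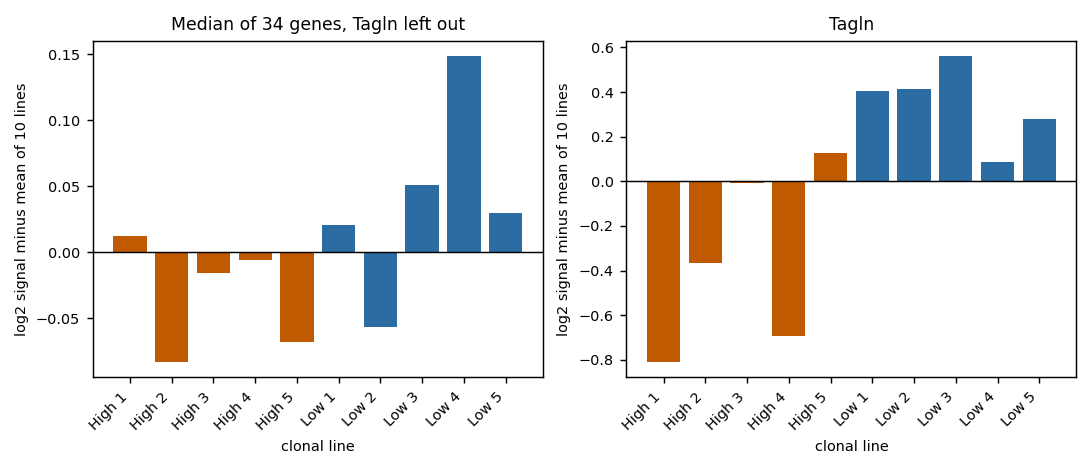
Bars give, for each clonal line, the median over 34 members without Tagln (left) and the value of Tagln (right) as log2 signal minus the mean of 10 lines; the vertical scales differ. Low replicate 4 has the tallest bar on the left, 0.15, and the shortest bar of the Low lines on the right, 0.09.

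Other genes of the pathway were counted on lists from textbook roles, drawn up with earlier results of these data known. A list of 20 additional targets of SRF and its MRTF partners held 18 genes below 0 and 2 above it, with a median of -0.18, and 0 members passed the adjusted threshold in limma. At an unadjusted p under 0.05, 7 of the 20 were lower in High lines, where 4.79% of all genes were. Of the 20, 4 had every High line below every Low line, where 1.04% of all genes did. The 7 were Ankrd1, Nexn, Ccn2, Pdlim5, Tgfb1i1, Cap1 and Crim1. Without Low replicate 4 the count at an unadjusted p under 0.05 was 5 of 20, where 3.88% of all genes were lower. The median was then -0.12.

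Ankrd1, a muscle ankyrin repeat protein that is also a widely used YAP target, was 8.48, 8.96, 9.49, 9.28 and 8.26 in High lines, against 9.40, 10.94, 9.81, 10.38 and 10.12 in Low lines. High replicate 3 and Low replicate 1 alone overlapped, and the difference was -1.23 (limma adjusted p = 0.277), or 2.35-fold lower in High lines. Nexn, which encodes the actin-binding protein nexilin, was 7.36, 6.63, 8.01, 6.64 and 7.92 in High lines, against 8.21, 8.09, 8.45, 9.14 and 8.30 in Low lines. The classes of Nexn did not overlap, and the difference was -1.13 (limma adjusted p = 0.307), or 2.18-fold lower in High lines.

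Ccn2, connective tissue growth factor, was 11.27, 11.61, 11.32, 11.58 and 11.49 in High lines and 11.30, 12.06, 12.37, 12.66 and 12.12 in Low lines. Low replicate 1 alone lay among the High lines, and the difference was -0.65 (limma adjusted p = 0.417). Pdlim5 and Tgfb1i1, LIM proteins of stress fibres and focal adhesions, separated the classes, with differences of -0.32 (limma adjusted p = 0.369) and -0.25 (limma adjusted p = 0.364). Cap1, an actin-recycling protein, also separated them at -0.14, and Crim1, a membrane protein that binds growth factors, differed by -0.24 with overlap.

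Both MRTF coactivators of SRF were measured, and neither passed the adjusted threshold in limma. Mrtfa was 11.18, 11.10, 11.17, 11.27 and 11.003 in High lines and 11.30, 11.01, 11.33, 11.42 and 11.43 in Low lines, with Low replicate 2 among the lowest High lines and a difference of -0.15 (limma adjusted p = 0.706). Mrtfb differed by 0.03, a sign that turned to -0.00 with the arrays centred on their medians.

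The remaining lists of the pathway had medians nearer to 0 than the -0.18 of the other MRTF and SRF targets. Ankrd1, named above as a YAP target, was counted among those targets and not with the YAP and TAZ genes. The YAP and TAZ list and the TGF-beta list hold mainly components of those pathways. Their medians therefore do not show how targets of YAP or TGF-beta differed. Among 14 ternary complex factors and immediate early SRF targets 7 were negative and 7 positive, with a median of -0.02, and Dusp1, a phosphatase of MAP kinases, was the 1 gene at an unadjusted p under 0.05 with -0.27. Of 10 YAP and TAZ genes 9 were negative, with a median of -0.08, close to the -0.09 of the 35 members. Tead1, a DNA-binding partner of YAP, was the 1 gene at an unadjusted p under 0.05 with -0.20. At that p 4.79% of all genes were lower in High lines. The TGF-beta and myofibroblast list held 5 genes below 0 and 7 above it among 12 tested, with a median of 0.02. It had 0 genes at an unadjusted p under 0.05 or past the adjusted threshold in limma.

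**Figure D5:**
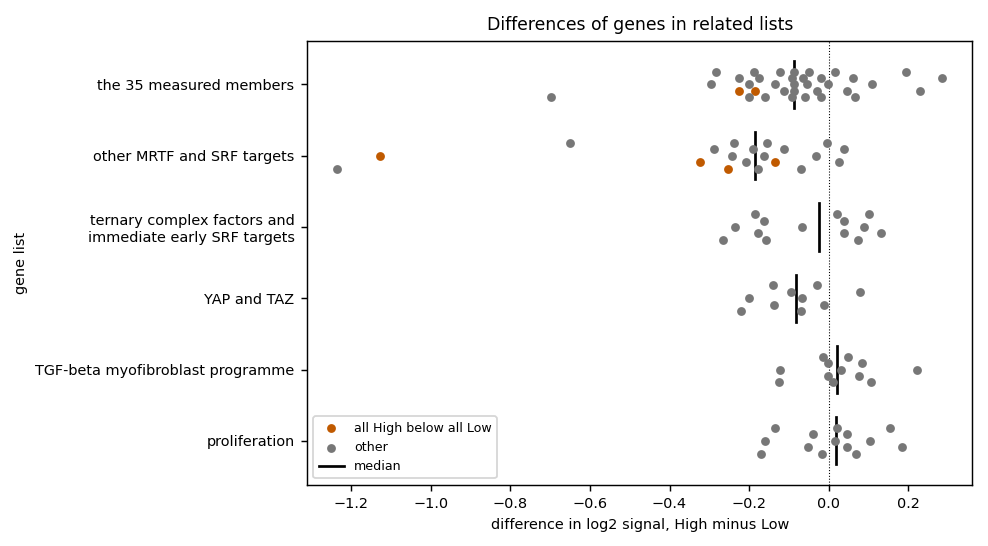
Each point is the High minus Low difference in log2 signal of a gene, by list; black lines are list medians and orange points are genes whose High lines all lie below all Low lines. The medians are -0.09 for the 35 members, -0.18 for other MRTF and SRF targets and -0.08 for YAP and TAZ. They are -0.02 for the list of ternary complex factors and immediate early targets and 0.02 for the TGF-beta and proliferation lists.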

How the data were processed

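Total RNA of 10 clonal lines was copied into sense-strand cDNA with the Ambion WT Expression Kit, labelled with biotin and hybridised to arrays, per the labels' protocols. The deposited values are log2 intensities, 1 per array and probe set. RMA was the normalization per the submitters' processing notes. Its version and settings were not given in the sources, nor was a batch of arrays. RMA gives arrays alike distributions, which takes out much of a shift shared by most genes. The table held 34760 probe sets, of which 21640 carried 1 gene symbol. The platform annotation named the genes, and the RefSeq table of GRCm38.p6 gave chromosomes. Array medians lay between 7.74 and 7.84, so a small difference between arrays remained. With the arrays centred on their medians the share of negative genes moved from 42.0% to 54.3%.

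The classes were tested with limma 3.58.1 (lmFit, eBayes) in R 4.3.3, two-sided, on the 16339 genes that exceeded the 25th percentile of 5 or more arrays, with Benjamini-Hochberg adjustment over all of them. The fit was run on simulated data with added changes larger than the difference of any member but Tagln. That run therefore does not cover differences as small as those of the other members. Tables and plots used Python 3.11.15, pandas 2.3.3, numpy 2.4.6 and matplotlib 3.10.9. Values by line are given for Tagln, for members at an unadjusted p under 0.05 or without overlap, for the 3 largest differences in each direction and for up to 2 further bright members of a role; of other lists, genes at an unadjusted p under 0.05 and Mrtfa and Mrtfb are named. Another list of the pathway is not reported here. The members and lists were chosen with earlier results of these data known, so no list was tested. Other settings tried were 2 other filters, averaged probe sets, 2 rescalings, another variance model, array weights, blocks by clone name, and each line dropped in turn. A split by a mean signal of 12 was chosen after seeing the data.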

Additional observations from a re-analysis of the deposited data

Results flagged for a closer look

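In each class of 5 lines, every member was searched for a line far from the other 4 of its class. Of 70 such sets of 5 values, 3 held a line apart, where about 3.5 arise by chance at 1 in 20. Tpm4 was 13.73 in High replicate 1, against 13.61 to 13.62 in the other High lines. Smtn was 10.40 in High replicate 5, against 10.50 to 10.55 in the other High lines. Smtn was also 10.95 in Low replicate 4, against 10.58 to 10.67 in the other Low lines. Without High replicate 1 the Tpm4 difference was -0.13, at an unadjusted p under 0.05. The Smtn difference was -0.16 without High replicate 5 and -0.12 without Low replicate 4.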

How the results depend on the processing

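The number of genes past the adjusted threshold in limma, 1 in the main comparison, was 2 with arrays centred on their medians, 3 with array weights, 0 when clones were blocked by the digit that opens their name (676 at an unadjusted p under 0.05), and 1 to 19 with 1 line left out, the 19 without High replicate 5. No member passed under any of the 18 alternatives, and the lowest adjusted p of a member was 0.0884. Members at an unadjusted p under 0.05 and lower in High lines numbered 7 in the main comparison, 4 with the clone digit as a block (1 of them among the 7) and 3 to 10 with 1 line left out. With arrays centred on their medians they numbered 10, where 7.27% of all genes were lower. The median member difference stayed between -0.12 and -0.06. Over these alternatives 22 of 27 negative and 4 of 8 positive members kept their sign. With the clone digit as a block the sign turned for Actg2 (-0.1225), Tagln2 (-0.0516), Tpm3 (-0.0003), Cald1 (0.0382), Lmcd1 (-0.0713) and Mrtfb (-0.0183). It turned with the mean of all probe sets for Myl6 (0.0282) and Mrtfb (-0.03), with array weights for Myl6 (0.0233), with centring for Tpm3 (-0.0167) and Mrtfb (-0.0029), and with repeated quantile normalization for Filip1l (0.0031). With 1 line left out, Actg2 ran from -0.0692 to 0.1626, Myl6 from -0.0527 to 0.0476, Mylk from -0.0882 to 0.0603, Lmod1 from -0.1451 to 0.0715, Filip1l from -0.0439 to 0.046 and Mrtfb from -0.0222 to 0.0873. The cause was not tested. No paired analysis was possible because the replicate numbers follow accession order and pair no lines. Each class had 5 arrays, so differences within the spread of clones cannot be told from 0.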

Other observations

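Proliferation genes and markers of other cell types were read in the same lines. Of 14 tested proliferation genes 6 were negative and 8 positive, with a median of 0.02. At an unadjusted p under 0.05 the cyclin gene Ccnb2 differed by 0.18, the survivin gene Birc5 by 0.15 and the replication gene Mcm5 by -0.17. At that p 3.16% of all genes were higher in High lines and 4.79% lower. In this list 0 passed the adjusted threshold in limma. The mean log2 signal over the list ran from 12.23 to 12.46 in High lines and from 12.22 to 12.46 in Low lines.

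Of 10 fibroblast and preadipocyte genes 3 were negative and 7 positive, with a median of 0.11. The negative ones were Col1a1 at -0.09, Dlk1 at -0.04 and Vim at -0.03. Among the positive ones Thy1, a surface marker of fibroblasts, differed by 0.34 and Pdgfra by 0.33. Pparg, the master factor of fat cell formation, differed by 0.62 and the matrix gene Dpt by 1.59. These 4 were at an unadjusted p under 0.05, where 3.16% of all genes were higher in High lines. None passed the adjusted threshold in limma in the main comparison. Without High replicate 5 Dpt and Pparg passed it (limma adjusted p = 0.00254 and 0.0485). For Pparg every High line lay above every Low line, where 0.526% of all genes did. With the clone digit as a block the Thy1 difference was 0.02. All 6 pericyte markers and all 5 epithelial markers had positive differences, with medians of 0.07 and 0.08. None was at an unadjusted p under 0.05 or past the adjusted threshold in limma. Most genes tested were positive too, since 42.0% were negative. Of the pericyte markers, Mcam and Notch3 were above the array's median in 10 arrays, Cspg4 in 4, Rgs5 in 2 and Abcc9 and Kcnj8 in 0. Of the epithelial markers, Krt8 was above it in 10 arrays and Epcam, Cdh1, Krt18 and Krt5 in 0. Of 5 leukocyte markers, Ptprc, Adgre1 and Itgam did not pass the filter, Cd68 was above the array's median in 10 arrays and differed by 0.14, and Lyz2 was above it in 6 and differed by 0.37. Of 5 endothelial markers, Emcn did not pass the filter, and Pecam1, Cdh5, Kdr and Tek passed it with differences of 0.02 to 0.08, above the array's median in 0 arrays. Of 10 skeletal and cardiac muscle markers, Myf5 did not pass the filter. Among the 9 tested, 3 fell below 0 and 6 above it, and the list median was 0.04. The cardiac troponin gene Tnnt2 measured 11.62 in High lines and 11.61 in Low lines. Acta1 and Actc1, like Tnnt2 above the array's median in 10 arrays, differed by -0.11 and -0.05. Ckm was above the array's median in 9 arrays and differed by 0.04. Myod1 and Tnnc2 were above it in 1 array each and differed by 0.14 and 0.11. Tnnt1, Myh3 and Myog were above it in 0 arrays and differed by -0.08, 0.09 and 0.21. Myog was the 1 gene of the 9 at an unadjusted p under 0.05.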
